A study of Mus musculus with 6 samples.

Results

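The genes described are 8 that build cholesterol or set how much of it a cell makes and takes up: Hmgcs1, Idi1, Fdps, Fdft1, Sqle and Lss, which encode enzymes, and Insig1 and Srebf2, which encode regulators. They were chosen by symbol, and all 8 are among the 24422 genes of the deposited count tables, where 7 of them had enough counts to be tested and 1, Hmgcs1, did not. None of the 7 tested members passed an adjusted p of 0.05 between knockout and control kidneys, where 17.2% of all genes tested did. Of 9 later enzymes of the same pathway, 3 passed it with lower levels in the knockout, beside 6.64% of all genes. None of the 9 passed it when any 1 control library was left out, and neither did any other gene. Of the members, Fdps came closest, with all 3 knockout libraries above all 3 control libraries, and 46.0% of all genes tested had groups that, like those of Fdps, did not overlap. Idi1 and Sqle had lower group means in the knockout, and those differences rested on 1 control library.

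Cholesterol is made from acetyl-CoA. The mevalonate arm of the pathway yields isoprenoid building blocks, squalene is joined from these, oxidised and closed into lanosterol, and the sterol arm, as the term is used here, trims lanosterol to cholesterol. SREBP2, the product of Srebf2, is a transcription factor held in the membrane of the endoplasmic reticulum by SCAP and the INSIG proteins when sterols are plentiful, and when sterols are scarce it is cut free and switches on the genes of the pathway. In the kidney, tubule cells need cholesterol for their large membranes, and proximal tubule cells also take up lipoproteins and filtered proteins.

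Poly-A RNA from whole kidney of C57BL/6 mice at postnatal day 60 was sequenced in 2 groups of 3 libraries, all from mice on a diet with 220 ppm iron. Control mice were wild type. Mice of the other group, TfR1KO;KspCre, carried Tfr1f/f, that is, both copies of the transferrin receptor gene with exons 3 and 4 between recombination sites, and a Cre recombinase driven by the Ksp-cadherin promoter, which is active in the distal nephron and collecting system and leaves most other kidney cells with an intact gene. The comparison asks which transcripts differ in the adult kidney when the transferrin receptor gene is targeted for deletion in these segments. The 3 libraries of this group are called knockout libraries after their label.

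Total counts ran from 11501053 (knockout 3) to 21001341 (control 1) per library. The targeted gene Tfrc had 138, 168 and 62.0 CPM (counts per 1000000 counts of a library, scaled by TMM, a factor that corrects for libraries of different make-up) in control 1, 2 and 3 and 214, 86.0 and 40.6 CPM in knockout 1, 2 and 3. Its groups overlapped, and since the counts cover all exons, and not the deleted exons alone, and all cells of the kidney, they are no check of the deletion. Control 2 was the only library with Y-linked transcripts above Xist (log2 ratio -6.23, against 10.8 to 12.3 in the other 5). The 10 markers of the proximal tubule summed to 18817 to 26115 CPM in control and 3348 to 9386 CPM in knockout libraries. All 10 had groups that did not overlap, beside 46.0% of all genes tested, and 8 of them were called lower in the knockout. Of 5 markers of the thick ascending limb, a segment in which Ksp-cadherin is expressed, none was called. They summed to 9711, 8864 and 3980 CPM in control 1, 2 and 3. In knockout 1, 2 and 3 they summed to 6200, 867 and 1181.5 CPM, so that only knockout 1 lay in the range of the controls. Markers of macrophages (8 of 9 called higher), fibroblasts and matrix (4 of 6 called higher), injured tubule (7 of 7 called higher) and cell division (5 of 6 called higher) moved the other way. Differences were tested with edgeR's quasi-likelihood test over 15171 genes, with p-values adjusted by Benjamini-Hochberg over all of them, and 17.2% of genes were called at an adjusted p under 0.05 (6.64% lower in the knockout and 10.6% higher). These calls are fragile: 0 genes were called when any 1 of the 3 control libraries was left out, 5332 without knockout 1, 73 without knockout 2 and 2 without knockout 3.

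Hmgcs1, the enzyme that makes HMG-CoA, was the member for which the files held no usable level. Its counts were 1, 0 and 0 in control 1, 2 and 3 and 0 in each knockout library. Its promoter, as RefSeq gives it, was looked up letter for letter in the NCBIM37 genome (mm9), the build to which reads were aligned. The 300 bases were found on none of the placed chromosomes and on 2 unplaced contigs, NT_110857 and NT_166323. Over 18210 bases around it the 2 contigs were the same, since 18111 of 18111 words of 100 bases on one were also on the other. Only uniquely mapped reads were counted in these data. The count of Hmgcs1 is therefore not a measurement of its expression in the kidney, and no fold change is given.

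Promoter sequences were had from RefSeq (GRCm38.p6) for 5 of the 8 members, Hmgcs1, Idi1, Insig1, Lss and Srebf2. The 250 bases before the start site are shown for Hmgcs1, which was located by it, for Srebf2, whose product acts on such promoters, and for Idi1, the member with the widest spread between libraries. All lie on the plus strand of GRCm38.p6 and are not to be read against the mm9 positions given for genes elsewhere. Capitals mark the sterol element TCACNCCA and the NF-Y box CCAAT, read on either strand (the box appears as ATTGG on the minus strand).
Hmgcs1, chr13:119690101-119690350: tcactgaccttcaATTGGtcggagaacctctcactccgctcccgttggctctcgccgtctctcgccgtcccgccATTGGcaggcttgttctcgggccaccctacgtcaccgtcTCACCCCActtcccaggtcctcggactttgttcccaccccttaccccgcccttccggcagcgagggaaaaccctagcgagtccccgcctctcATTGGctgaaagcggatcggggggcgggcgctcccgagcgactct
Srebf2, chr15:82147019-82147268: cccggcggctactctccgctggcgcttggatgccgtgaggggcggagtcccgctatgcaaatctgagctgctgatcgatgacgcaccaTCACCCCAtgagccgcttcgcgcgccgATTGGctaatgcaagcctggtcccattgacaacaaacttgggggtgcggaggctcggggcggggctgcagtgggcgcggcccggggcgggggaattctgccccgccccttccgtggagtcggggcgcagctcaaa
Idi1, chr13:8885356-8885605: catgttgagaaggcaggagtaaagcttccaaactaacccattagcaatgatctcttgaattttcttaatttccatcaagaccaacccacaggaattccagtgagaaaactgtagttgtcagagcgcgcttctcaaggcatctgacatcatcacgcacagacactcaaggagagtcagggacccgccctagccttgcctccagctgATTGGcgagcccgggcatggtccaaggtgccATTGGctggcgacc

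The motifs were searched on both strands of 300-base windows, 250 bases before to 50 after the start. The sterol element TCACNCCAC was present in Hmgcs1 alone of the 5 members, and in 1.24% of all 32851 windows. Its form without the last letter, TCACNCCA, which overlaps it and was added after the longer form had been counted, was present in Hmgcs1 and Srebf2 and in 4.36% of windows. In both genes it stood upstream of the start, its first base 137 bases before it in Hmgcs1 and 162 in Srebf2. CCAAT was present in all 5 members and in 37.4% of windows, and the Sp1 box GGGCGG, which shares no letters with a sterol element here, was present in all 5 and in 35.7% of windows. A match of letters is a description of the sequence and not a measured binding site.

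Idi1 (ENSMUSG00000058258; chr13:8884852-8891641, plus strand, mm9) encodes the isomerase that turns isopentenyl diphosphate into its reactive partner. It was read at 46.2, 192 and 43.3 CPM in control 1, 2 and 3 and at 40.9, 43.0 and 44.0 CPM in knockout 1, 2 and 3. Control 2 alone stood high, 4.29 times the mean of the other 2 controls, and the other 5 libraries lay close together, with the groups overlapping. The log2 fold change was -1.14 (SE 0.57, 95% interval -2.50 to 0.22, adjusted p = 0.186), and without control 2 it was -0.08 (SE 0.14, adjusted p = 0.736). Of the 100-base words of its transcript, 80.3% occur elsewhere in the genome, 2221 of them on chromosome 2, and only uniquely mapped reads were counted. Where the reads of Idi1 fall within the transcript was not examined.

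Fdps (ENSMUSG00000059743; chr3:88897514-88905881, minus strand, mm9) encodes the synthase of farnesyl diphosphate, from which sterols and the lipid anchors of many proteins are made. It had 34.1, 32.3 and 32.1 CPM in the controls and 47.0, 40.7 and 58.5 CPM in the knockouts. It was the only one of the 7 tested members whose groups did not overlap, and 46.0% of all genes tested had groups that did not overlap. Its log2 fold change was 0.57 (SE 0.16, 95% interval 0.19 to 0.95), with an unadjusted p of 0.00981 and an adjusted p of 0.0531, just outside the threshold. It was also the only member with an unadjusted p under 0.05, which 38.6% of all genes had. DESeq2's Wald test placed Fdps inside the threshold (adjusted p = 0.0227), as did upper quartile scaling, library size alone and library sizes without the 10 highest genes, and over all 17 alternatives its adjusted p ran from 0.0227 to 0.161 and its log2 fold change from 0.42 to 0.84. Of its 100-base words, 26.4% occur elsewhere (on chromosomes 10 and 6).

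Fdft1 (ENSMUSG00000021273; chr14:63763990-63796630, minus strand, mm9) encodes squalene synthase, the first step that commits the pathway to sterols. It was read at 45.8, 42.4 and 49.5 CPM in the controls and at 38.4, 38.4 and 65.7 CPM in the knockouts. Knockout 3 stood above, and knockout 1 and 2 below, all 3 controls. The log2 fold change was 0.05 (SE 0.23, 95% interval -0.50 to 0.60, adjusted p = 0.895), and it was -0.26 without knockout 3. An exon of Fdft1 overlaps one of Ctsb on the opposite strand, and reads of the shared stretch cannot be told apart without strand.

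Sqle (ENSMUSG00000022351; chr15:59146632-59162747, plus strand, mm9) encodes squalene epoxidase, which puts oxygen on squalene. It was read at 64.3, 135 and 54.9 CPM in the controls and at 78.8, 59.3 and 49.6 CPM in the knockouts. As for Idi1, control 2 stood highest, at 2.27 times the mean of the other controls, and the groups overlapped. Between the groups the log2 fold change was -0.44 (SE 0.36, 95% interval -1.30 to 0.42, adjusted p = 0.405), and without control 2 it was 0.06 (adjusted p = 0.886).

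Lss (ENSMUSG00000033105; chr10:75994333-76019883, plus strand, mm9) encodes lanosterol synthase, which closes the rings. It was read at 26.3, 33.1 and 28.8 CPM in the controls and at 23.8, 26.9 and 27.0 CPM in the knockouts. This was the narrowest range of any tested member, the highest library being 1.39 times the lowest, with control 2 highest and the groups overlapping. For Lss it came to a log2 fold change of -0.18 (SE 0.15, 95% interval -0.53 to 0.16, adjusted p = 0.388). An exon of Lss overlaps 4930483K19Rik on the other strand.

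Of the regulators, Srebf2 (ENSMUSG00000022463; chr15:81977696-82035806, plus strand, mm9) had 136, 120 and 108 CPM in the controls and 129, 92.9 and 143 CPM in the knockouts. The knockout libraries lay on both sides of the controls. The log2 fold change was 0.01 (SE 0.20, adjusted p = 0.981), and its 95% interval of -0.46 to 0.47 spans 0.728-fold to 1.39-fold. Insig1 (ENSMUSG00000045294; chr5:28397952-28405201, plus strand, mm9), which holds SREBP back and is itself an SREBP target, had 58.6, 62.1 and 64.9 CPM in the controls and 35.1, 60.1 and 83.2 CPM in the knockouts. The 3 controls were within 1.11 times of each other, and the knockouts spanned 2.37 times, with knockout 1 below and knockout 3 above every control. The log2 fold change of Insig1 was -0.06 (SE 0.29, 95% interval -0.75 to 0.63, adjusted p = 0.899), and it was -0.38 without knockout 3 and 0.20 without knockout 1. Of its 100-base words, 17.3% occur elsewhere, on chromosome 3.

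**Figure D1:**
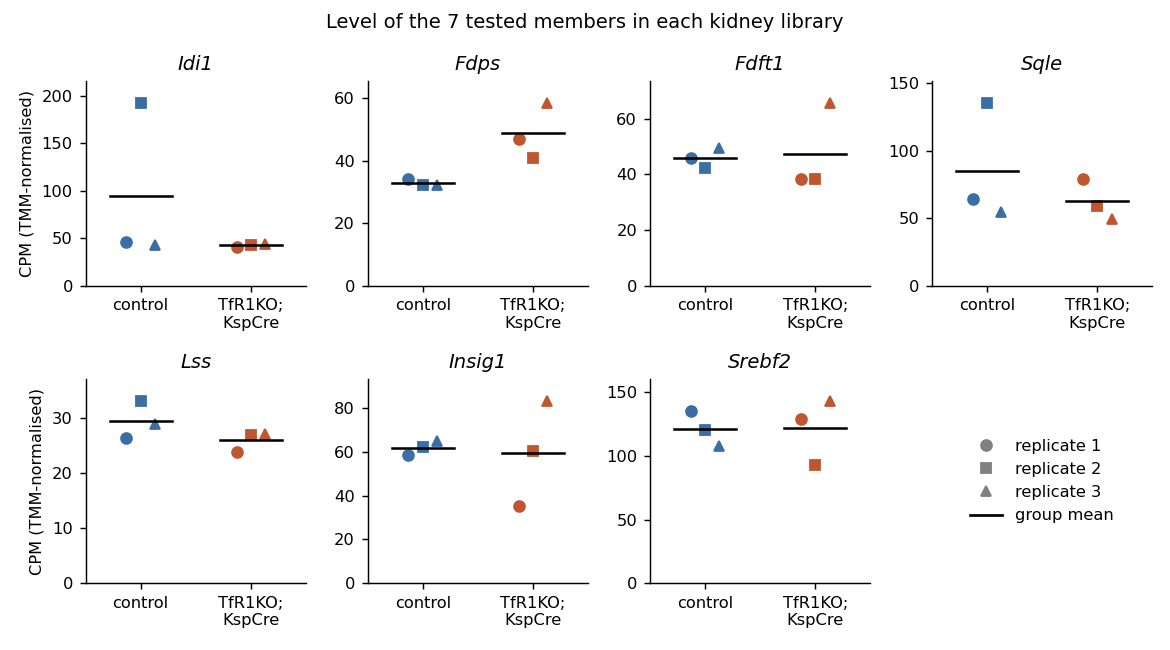
Level of each tested member in CPM (TMM-normalised, vertical axes from 0) in the 3 control (blue) and 3 TfR1KO;KspCre (orange) libraries, with symbols for replicate 1, 2 and 3 and black bars for group means. Control 2 stands alone for Idi1 (192 CPM) and Sqle (135 CPM), and Fdps is the only member whose knockout libraries (40.7 to 58.5 CPM) all lie above its controls (32.1 to 34.1 CPM).

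The members did not share 1 profile over the libraries. Control 2 was the highest library for 3 of the 7 (Sqle, Idi1 and Lss), against 21.3% of all genes tested, and knockout 3 was the highest for the other 4 (Insig1, Fdft1, Fdps and Srebf2), against 22.6% of all genes. Control 2 is the library with Y-linked transcripts and knockout 3 the one with the fewest counts, and the part of either in these levels was not tested. The median log2 fold change of the 7 tested members was -0.06, beside 0.02 for all genes tested, with 4 members below 0 and 3 above. With library size alone in place of TMM the median of all genes moved by 0.27, to 0.29, and that of the members went with it to 0.23.

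**Figure D2:**
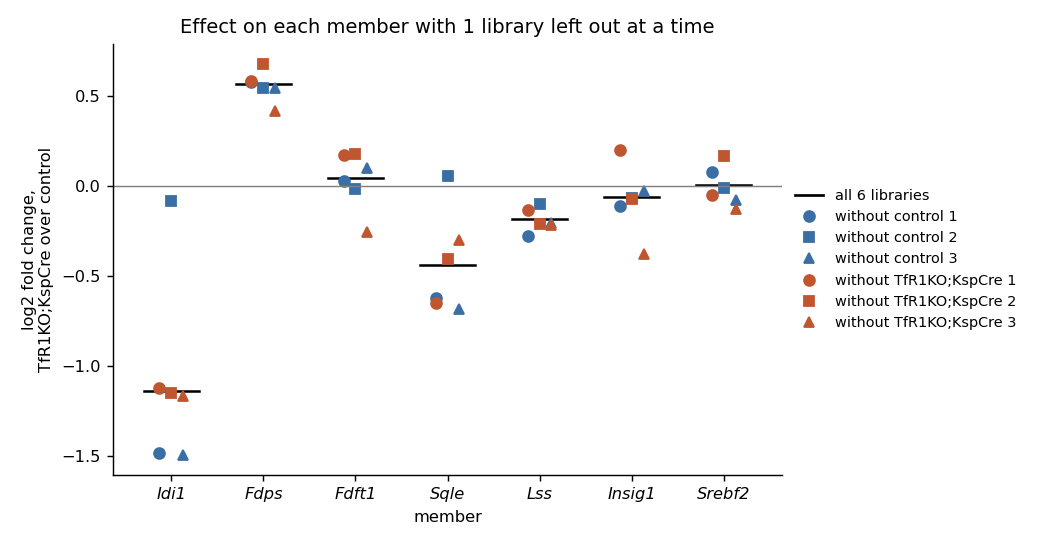
Log2 fold change of each tested member, TfR1KO;KspCre over control, with all 6 libraries (black bars) and with 1 library left out (blue symbols for a control, orange for a knockout library). Leaving out control 2 brings Idi1 from -1.14 to -0.08 and Sqle from -0.44 to 0.06, while Fdps stays between 0.42 and 0.68.

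Per kilobase of the longest coding transcript, the control order of mean levels ran from Idi1 (32.8 CPM per kilobase ± 29.7, SD, n = 3) through Sqle (30.8 ± 15.9), Fdps (26.7 ± 0.90), Srebf2 (24.3 ± 2.78), Insig1 (23.4 ± 1.19) and Fdft1 (16.04 ± 1.24) to Lss (6.30 ± 0.73). The first 5 of these did not differ from their neighbours beyond the spread of the libraries, whereas all Fdft1 values lay below those of Insig1 and all Lss values below those of Fdft1. In the knockout libraries, on the same scale, Fdps stood first (39.6 CPM per kilobase ± 7.31), above every value of Srebf2 next to it (24.4 ± 5.21). Sqle (22.7 ± 5.40), Insig1 (22.5 ± 9.08), Fdft1 (16.6 ± 5.50) and Idi1 (14.9 ± 0.54) followed with overlapping neighbours, and Lss (5.55 ± 0.39) was again last and apart. These levels take the whole transcript as countable. Per kilobase of words found nowhere else, a measure added after the data were seen, the control means were 172 CPM for Idi1, 39.4 for Fdps, 31.9 for Sqle and 29.4 for Insig1. On that scale the knockout means were 78.1 CPM for Idi1, 58.4 for Fdps and 28.2 for Insig1, so that in the knockout libraries Idi1 moved from the sixth place to the first and Fdps from the first to the second.

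The other enzymes of synthesis show the steps around the members. Of 6 other genes of the mevalonate arm, 5 were tested, 1 was called lower and 0 higher, beside 6.64% and 10.6% of all genes, and the median log2 fold change was -0.22. The gene called was Acat2, the thiolase that joins acetyl-CoA units, with 75.5, 102 and 79.7 CPM in the controls and 53.1, 44.0 and 39.5 CPM in the knockouts (log2 fold change -0.91, SE 0.18, adjusted p = 0.0305), although 20.4% of its 100-base words occur elsewhere.

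Of 9 genes of the sterol arm, counted from the step after Lss so that Sqle and Lss are outside it, all were tested, 3 were called lower and none higher, which is 33.3% beside 6.64% of all genes called lower. The median log2 fold change of the arm was -0.62, and in 8 of the 9 control 2 was the highest library. Cyp51, which removes the first methyl group from lanosterol, had 464, 617 and 261 CPM in the controls and 183, 76.2 and 63.8 CPM in the knockouts. All knockout libraries lay below all controls, and the log2 fold change was -2.05 (SE 0.50, 95% interval -3.23 to -0.88, adjusted p = 0.0394). Ebp, a sterol isomerase, had 91.9, 100.2 and 98.3 CPM against 61.0, 33.3 and 39.6 CPM (log2 fold change -1.12, SE 0.23, adjusted p = 0.0324), and Nsdhl, a sterol dehydrogenase, had 58.6, 75.6 and 67.5 CPM against 41.1, 35.0 and 32.2 CPM (log2 fold change -0.90, SE 0.16, adjusted p = 0.0288). Dhcr7, which makes cholesterol from its 7-dehydro form, had 29.95, 35.6 and 26.4 CPM against 25.8, 16.6 and 17.4 CPM and was not called (log2 fold change -0.62, SE 0.22, adjusted p = 0.0880). It was called by DESeq2's Wald test (adjusted p = 0.0448) and without knockout 1 (log2 fold change -0.86, adjusted p = 0.0164), and the adjusted p ran from 0.0164 to 0.241 over its 17 alternatives. Without control 2 the log2 fold change of Cyp51 was -1.76 (adjusted p = 0.124 and, over all its alternatives, 0.000249 to 0.124), and the call was lost, like every call over all genes. Without knockout 1 it was -2.69 (adjusted p = 0.00516).

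**Figure D3:**
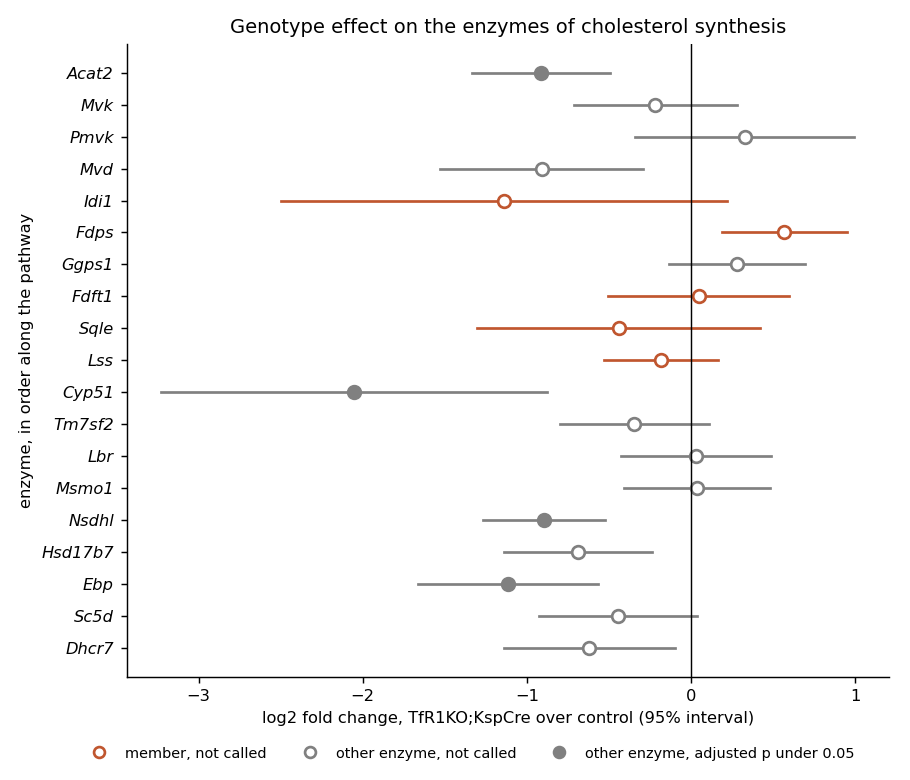
Log2 fold change, TfR1KO;KspCre over control, with its 95% interval for 19 tested enzymes of cholesterol synthesis, from top to bottom along the pathway, members in orange and other enzymes in grey, with filled points for adjusted p under 0.05. The 5 members sit in the middle of the pathway with open points, and the 4 filled points (Acat2, Cyp51, Nsdhl and Ebp) all lie below 0.

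The summed levels of the proximal tubule markers and of the sterol arm were both lower in the knockout libraries. Of the 9 genes of the arm only 3 were called, and Lbr and Msmo1 had slightly higher means in the knockout. The 9 genes of the arm summed to 814, 1048 and 609 CPM in control 1, 2 and 3 and to 460, 320 and 308 CPM in knockout 1, 2 and 3. Cyp51 alone supplied 464, 617 and 261 CPM of the control sums and 183, 76.2 and 63.8 CPM of the knockout sums. The 10 proximal tubule markers summed to 18817, 23030 and 26115 CPM in the controls and to 9386, 4458 and 3348 CPM in the knockouts. The part of cell make-up in the sterol arm was not tested, and in RNA from a whole kidney fewer cells of a type and less RNA per cell cannot be told apart. The 7 tested members summed to 411, 618 and 381 CPM in the controls and to 393, 361 and 471 CPM in the knockouts, which overlapped. Of markers of the adrenal cortex, a steroid-making tissue that lies on the kidney, 7 of 8 were not tested, Cyp11b2 had 0 counts in all libraries and Cyp11b1 had 1 count in all. The exception was Star, at 7.17 to 8.77 CPM in controls and 7.17 to 13.2 CPM in knockouts.

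Of 10 genes that control SREBP or answer to LXR, the sensor of surplus sterol, 2 were called lower and 0 higher, beside 6.64% and 10.6% of all genes, and the median log2 fold change was 0.00. Nr1h3, which encodes LXR alpha, had 49.1, 64.9 and 50.2 CPM in the controls and 37.0, 23.5 and 23.1 CPM in the knockouts (log2 fold change -0.97, SE 0.23, adjusted p = 0.0378), and Stard4, a carrier of cholesterol within cells, had 55.6, 70.3 and 50.3 CPM against 38.7, 30.7 and 25.9 CPM (log2 fold change -0.89, SE 0.20, adjusted p = 0.0359). The partners of the 2 regulators among the members were not called. Scap, the escort of SREBP, had a log2 fold change of -0.33 (SE 0.21, adjusted p = 0.286), Insig2, the relative of Insig1, one of -0.22 (SE 0.15, adjusted p = 0.316), and Srebf1, the relative of Srebf2 that serves fatty acid synthesis, one of 0.11 (SE 0.13, adjusted p = 0.577). Srebf1 had 80.1, 83.0 and 78.0 CPM in the controls and 96.4, 86.1 and 77.2 CPM in the knockouts.

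Of 7 genes of uptake and lysosomal release, 6 were tested, 1 was called lower and 1 higher (33.3% called, beside 17.2% of all genes), with a median log2 fold change of 0.59. Scarb1, the receptor that takes cholesterol from HDL, was higher in the knockout, with 32.6, 29.3 and 23.3 CPM against 48.9, 49.8 and 49.0 CPM (log2 fold change 0.79, SE 0.15, adjusted p = 0.0305). Lipa, the lysosomal lipase that frees cholesterol from lipoproteins, was lower, with 279, 296 and 543 CPM against 157, 183 and 109 CPM (log2 fold change -1.31, SE 0.33, adjusted p = 0.0414). The call of Lipa was lost with library size alone (adjusted p = 0.0544) and with library sizes without the 10 highest genes (adjusted p = 0.0519), and over its 17 alternatives the adjusted p ran from 0.00128 to 0.118.

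Of 8 genes of efflux, carriage and ester storage, 6 were tested and none was called, beside 17.2% of all genes, with a median log2 fold change of 0.81. Of the 6, 3 had groups that did not overlap, beside 46.0% of all genes tested. These 3 had the knockout above the control and adjusted p of 0.0511 to 0.09997. Abca1, the pump that loads cholesterol on apolipoproteins, had 67.6, 53.1 and 106 CPM in the controls and 121, 276 and 70.4 CPM in the knockouts, with overlapping groups (log2 fold change 1.04, SE 0.51, adjusted p = 0.177, and 0.34 without knockout 2, adjusted p = 0.546). Soat1, which makes cholesterol esters, had 24.6, 34.3 and 20.8 CPM against 36.9, 46.7 and 35.6 CPM, with groups that did not overlap (log2 fold change 0.58, SE 0.22, adjusted p = 0.09997, and called with library size alone, adjusted p = 0.0308, and without the 10 highest genes in library sizes, adjusted p = 0.0350, of a range of 0.0308 to 0.244 over its alternatives). Macrophages are rich in both, their 9 markers summed to 347 to 399 CPM in control and 1413 to 3597 CPM in knockout libraries, and their part in these levels was not tested.

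The 8 genes of fatty acid synthesis, served by the related factor SREBP1, were all tested, with 2 called lower, 1 higher (37.5% called, beside 17.2% of all genes) and a median log2 fold change of -0.81. Acss2, which makes acetyl-CoA from acetate, had 222, 387 and 208 CPM in the controls and 135, 54.4 and 51.6 CPM in the knockouts (log2 fold change -1.76, SE 0.45, adjusted p = 0.0430, and -2.37 without knockout 1, adjusted p = 0.00427). Me1, a source of NADPH, had 367, 774 and 417 CPM against 203, 148 and 144 CPM (log2 fold change -1.65, SE 0.33, adjusted p = 0.0313). Scd2, a desaturase, was higher, with 253, 237 and 237 CPM against 394, 414 and 351 CPM (log2 fold change 0.67, SE 0.16, adjusted p = 0.0369). Fasn, the fatty acid synthase itself, had 916, 405 and 457 CPM against 155, 248 and 447 CPM and was not called (log2 fold change -1.07, SE 0.47, adjusted p = 0.145, and -1.56 to -0.62 with 1 library left out). The 5 fat cell markers summed to 416, 187 and 187 CPM in the controls and to 114, 252 and 361 CPM in the knockouts. Fabp4 alone supplied 311 CPM of the sum in control 1. By single gene, Plin1 and Fabp4 were highest in control 1, Adipoq and Cidec in knockout 3 and Lep in control 2. The part of any fat left on the kidney in the level of Fasn was not tested.

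**Figure D4:**
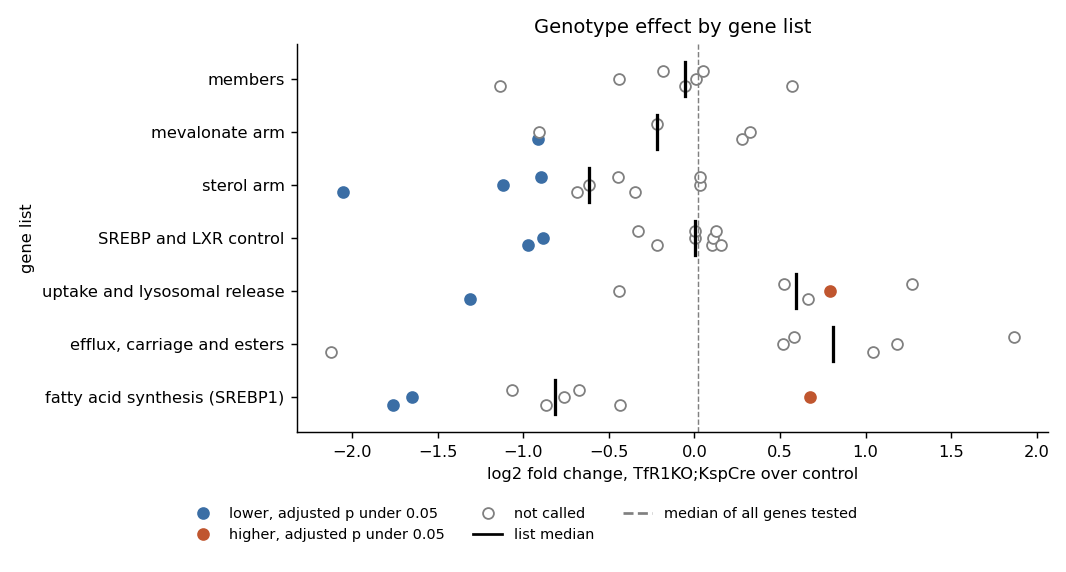
Log2 fold change, TfR1KO;KspCre over control, of each tested gene in the 7 lists (rows), with blue for lower and orange for higher at adjusted p under 0.05, open points for genes not called, black bars for list medians and a dashed line for the median of all genes tested (0.02). The members centre on -0.06, the sterol arm on -0.62 and fatty acid synthesis on -0.81.

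Over the 48 genes of the other lists, 44 were tested and 11 were called, which is 25.0% beside the 17.2% of all genes, with 9 lower and 2 higher. The mean profile of the 7 tested members, each standardised over the 6 libraries, was highest in control 2 (0.64) and knockout 3 (0.61) and lowest in knockout 2 (-0.48) and knockout 1 (-0.44). Among 11231 genes outside the lists whose mean log2 CPM was 3 or more, the 5 whose log2 CPM was most like it over the 6 libraries were D930016D06Rik (Pearson's r = 0.978), Ppp2r2d (0.970), Dcaf6 (0.911), Lrrc75b (0.911) and Itpk1 (0.906). Ppp2r2d, for example, had 43.7, 47.5 and 41.0 CPM in the controls and 39.7, 40.2 and 46.7 CPM in the knockouts. Among the least alike were Mfsd12 (r = -0.953), Plekha1 (-0.949), Ggh (-0.936) and Gc (-0.929). These genes were picked from all these genes for their likeness over 6 points that share libraries, so the values are a description. None of the 9 named was called. The profile peaks in 1 library of each group, so genes picked by it are unlikely to be called, and nothing is drawn from this.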

How the data were processed

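The deposited values were raw counts per gene, in 1 table per group, with no normalization. Per the methods of the study and the submitters' processing notes, the authors called bases with CASAVA 1.8.2, trimmed reads with Trimmomatic, aligned them to mm9 with TopHat2 2.0.11, kept uniquely mapped reads and counted them with HTSeq. The gene annotation and strand setting are not given in the sources used here. Groups and replicate numbers came from the sample titles.

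Genes were kept by filterByExpr (minimum count 10, minimum total 15), scaled by TMM and tested with edgeR 4.0.16 (glmQLFit, glmQLFTest, R 4.3.3) over all 6 libraries without covariates. P-values measure the spread between 3 mice a group. Log2 CPM per library used a prior count of 2. Alternatives used DESeq2 1.42.0 and limma 3.58.1. The script was tested on simulated data. Replicate libraries differed by more than sampling noise (chi-square per degree of freedom 52.9 to 125.5). Coordinates and lengths are from GENCODE M1 on NCBIM37.

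The members and gene lists were chosen with earlier results of these data known. Named were all members, every called gene of the lists, Cyp51, Dhcr7, Insig2, Srebf1, Scap, Abca1, Soat1 and Fasn, and the genes most and least like the members' mean profile. Some genes of the lists and of these rankings are not reported here and were left out of the list counts. Sequence of 5 members came from RefSeq.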

Additional observations from a re-analysis of the deposited data

How the results depend on the processing

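None of the 7 tested members was called with DESeq2 size factors, without a filter, with at least 10 counts in every library, with limma-voom or with the newer quasi-likelihood version, and 1, Fdps, was called with upper quartile scaling, library size alone, library sizes without the 10 highest genes, DESeq2's Wald test, an adjusted p under 0.10 and an unadjusted p under 0.05. Over all genes the calls were 2612, and 4882 with DESeq2's Wald test, 5034 at an adjusted p under 0.10 and 5862 at an unadjusted p under 0.05. Leaving out 1 library gave 0 to 5332 calls over all genes (0 without any 1 control, with 4270 to 4823 genes at an unadjusted p under 0.05), 0 to 5 in the sterol arm, 0 to 19 among the 48 other pathway genes and 0 among the members. Those 48 genes held 11 calls, and 19 with DESeq2's Wald test, 18 at an adjusted p under 0.10 and 22 at an unadjusted p under 0.05. The sterol arm held 3 calls, and 5 under each of these. With a covariate for the balance of Xist against Y-linked counts, edgeR made 0 calls over all genes (4221 at an unadjusted p under 0.05), 0 in the sterol arm and 0 in the other lists. The covariate was -6.23 in control 2 and 10.8 to 12.3 in the other libraries. This fit is therefore close to leaving control 2 out and is not a separate check. With the replicate number as a block, edgeR likewise made 0 calls over all genes, in the sterol arm and in the other lists (5432 genes at an unadjusted p under 0.05). Same-numbered libraries deviated together with correlations of -0.13, 0.01 and 0.22, so the numbers were not taken to pair them. The median of the members moved from -0.06 to 0.23 with library size alone and to 0.19 without the 10 highest genes, and that of the sterol arm from -0.62 to -0.35 and -0.39, while all genes moved by 0.27 and 0.23. The split of all calls went from 61.4% higher to 81.8% with library size alone.

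The direction turned for genes that were not called. Sqle became 0.0446 with the Xist covariate and ranged from -0.6834 to 0.05884 with 1 library left out (positive without control 2). Insig1 became 0.02449 with upper quartile scaling, 0.2306 with library size alone and 0.1875 without the 10 highest genes, and ranged from -0.3779 to 0.2022 with 1 library left out. Lss became 0.09766 and Insig2 0.04707 with library size alone, and 0.05373 and 0.005429 without the 10 highest genes. Fdft1 became -0.0112 with limma-voom, and ranged from -0.2566 to 0.178 with 1 library left out. Srebf2 became -0.01149 with DESeq2 size factors, -0.007035 with no filter, -0.01176 with DESeq2's Wald test and -0.009976 with the block, and ranged from -0.1264 to 0.1682 with 1 library left out. The cause of these turns was not tested. Of 425 values for 25 named genes under the alternatives, 317 kept their direction and side of the threshold, 79 lost and 8 gained the call, and 21 turned direction.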
